A study of Mus musculus with 12 samples.

Results

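The Kruppel-like factors (Klf genes) in mouse liver are described here across dexamethasone treatment and ovariectomy. The group comprised the 10 genes Klf2, Klf3, Klf4, Klf6, Klf9, Klf10, Klf11, Klf12, Klf13 and Klf15, chosen by gene symbol, out of 24033 symbols in the deposited table. Each had a single entry, and all 10 were among the 12965 genes with a mean log2 value of at least 4 that were tested. Liver RNA came from wild-type C57BL/6 female mice in 4 groups of 3 libraries. These were ovariectomized females given dexamethasone at 1 mg/kg, ovariectomized females given PBS as vehicle, intact females given the same dose of dexamethasone, and intact females given PBS, all collected 6 h after treatment. Dexamethasone is a synthetic glucocorticoid that activates the glucocorticoid receptor, and removal of the ovaries takes away the main source of oestrogen. The labels give no age and no interval between surgery and treatment, and nothing in them says that the replicates of a group are different animals, so the p-values cover the spread among these samples, which may be technical.

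Klf proteins are transcription factors that bind GC-rich and CACCC sequences through zinc fingers at the carboxyl end, and they differ in the amino-terminal part that recruits activators or repressors. Klf2, Klf4 and Klf6 can activate transcription. Klf3 and Klf12 repress through the corepressor CtBP, and Klf9, Klf10, Klf11 and Klf13 can repress through Sin3. Several of them are known in liver as carriers of hormonal and circadian signals: Klf9 and Klf15 are glucocorticoid-responsive in many tissues, Klf15 drives amino acid breakdown for gluconeogenesis, and Klf10 follows the clock and glucose.

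Levels are the deposited log2 normalized values, which give no counts, so the depth is unknown and no counting interval is given. Each difference is a log2 fold change with its SE, estimated by limma from 3 libraries in each group, and a gene was called at a Benjamini-Hochberg adjusted p under 0.05 over all genes tested. The summed level of 6 hepatocyte markers lay between 21.98 and 22.32 in the 12 libraries, against 6.84 to 7.02 for 6 T and NK cell markers. Library medians lay between 8.82 and 8.86. Replicate 3 of intact dexamethasone stood furthest from its group mean, with a root mean square deviation of 0.181 per gene, against 0.0922 to 0.152 in the other libraries. In whole liver, fewer cells of a type and less RNA per cell cannot be told apart.

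Promoter sequences from RefSeq (GRCm38.p6) were matched for 9 of the 10 genes, all but Klf10, so no motif statement below covers Klf10. They are shown for 5 genes with called changes described below: Klf2 and Klf4, which shared a peak in ovariectomized vehicle livers, Klf3 and Klf12, the pair with the most similar profiles, and Klf9. Each is the 250 bases before the annotated start, 5′ to 3′ on the gene's strand. Capitals mark matches on either strand to the motifs searched: the GC box GGGCGG, the E-box CACGTG, the glucocorticoid receptor core AGAACA, the oestrogen receptor core AGGTCA, the TATA box motif TATAAA, the cyclic AMP response core TGACG, the CCAAT box, the AP-1 motif TGANTCA and the MEF2 motif.
Klf2 (chr8:72318812-72319061, plus strand): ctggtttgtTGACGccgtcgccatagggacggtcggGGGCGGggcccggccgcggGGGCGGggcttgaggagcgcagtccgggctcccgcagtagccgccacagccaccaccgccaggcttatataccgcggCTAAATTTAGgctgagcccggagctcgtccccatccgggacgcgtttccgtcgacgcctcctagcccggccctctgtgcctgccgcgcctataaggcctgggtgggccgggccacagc
Klf4 (chr4:55532476-55532725, minus strand): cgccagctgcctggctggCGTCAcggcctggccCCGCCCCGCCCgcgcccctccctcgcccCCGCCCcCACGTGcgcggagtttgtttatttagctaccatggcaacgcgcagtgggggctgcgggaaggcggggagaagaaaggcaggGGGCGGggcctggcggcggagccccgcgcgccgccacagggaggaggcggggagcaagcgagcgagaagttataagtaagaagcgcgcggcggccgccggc
Klf3 (chr5:64803271-64803520, plus strand): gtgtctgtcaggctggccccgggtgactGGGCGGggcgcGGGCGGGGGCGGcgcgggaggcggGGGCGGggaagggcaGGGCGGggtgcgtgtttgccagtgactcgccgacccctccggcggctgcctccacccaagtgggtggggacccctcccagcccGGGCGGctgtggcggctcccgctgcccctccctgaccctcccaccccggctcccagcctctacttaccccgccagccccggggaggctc
Klf12 (chr14:100149797-100150046, minus strand): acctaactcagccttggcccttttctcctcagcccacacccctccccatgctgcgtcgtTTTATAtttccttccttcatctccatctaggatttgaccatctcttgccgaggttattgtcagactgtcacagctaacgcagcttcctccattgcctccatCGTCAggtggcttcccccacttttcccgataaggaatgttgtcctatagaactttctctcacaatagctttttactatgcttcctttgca
Klf9 (chr19:23140976-23141225, plus strand): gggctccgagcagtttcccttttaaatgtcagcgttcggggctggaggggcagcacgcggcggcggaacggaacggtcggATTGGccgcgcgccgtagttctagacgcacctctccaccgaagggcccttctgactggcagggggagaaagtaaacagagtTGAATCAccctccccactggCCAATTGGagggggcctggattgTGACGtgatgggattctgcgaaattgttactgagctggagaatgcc

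A GC box, the kind of sequence that Klf proteins themselves bind, was present in 7 of 9 of these promoters, against 32.7% of all 32851 windows of the same length. The Klf3 window held 6 and the Klf4 window 4, while the windows of Klf9 and Klf12 held none. Base composition differed too, since the 9 windows ranged from 48.0% GC in Klf12 to 78.4% in Klf3, against a median of 52.4% over all windows. An E-box, the letters bound by the clock activators, was present in 4 of 9 (Klf4, Klf6, Klf11 and Klf15, the last with 2), against 6.02% of all windows. The MEF2 motif, bound by the factor through which blood flow induces Klf2 in endothelium, was found in the Klf2 window and in 0.508% of all windows. The Klf9 window held an AP-1 match (6.75% of all windows) and 3 CCAAT matches, of which 2 overlapped. CCAAT was present in 5 of 9 (33.8% of all windows), TGACG in 6 of 9 (17.8%) and TATAAA only in Klf12 among the 9 (12.4%). Neither AGAACA (16.1%) nor AGGTCA (14%) occurred in any of the 9, which says only that these letters are not in these windows. Overlapping matches to the same motif occurred once each in Klf4, Klf9 and Klf11 and were counted separately, and no matches to different motifs overlapped.

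**Figure D1:**
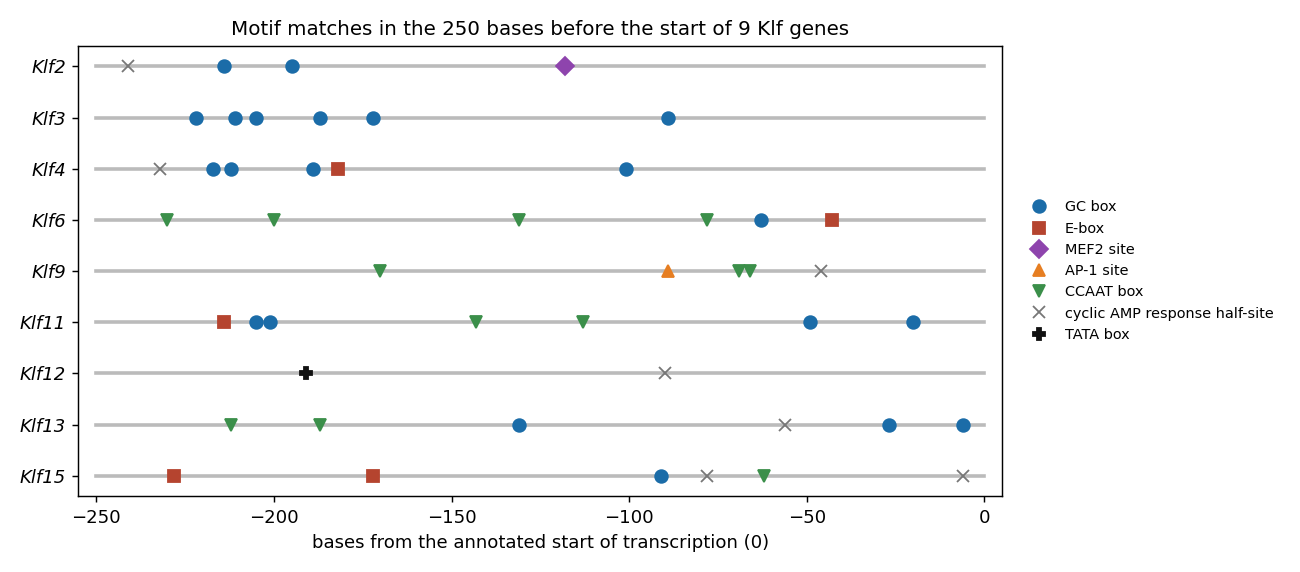
Motif matches in the 250 bases before the annotated start of 9 Klf genes, by distance from the start in bases; each symbol marks a match to one motif, on either strand. GC boxes are present in 7 of the 9 windows and absent from those of Klf9 and Klf12.

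Scaled to transcript length (log2 value minus log2 of the longest coding transcript in kilobases, from GENCODE M21), Klf15 had the highest mean level over the 12 libraries at 10.81. Klf10 followed at 8.78, Klf9 at 8.39 and Klf13 at 8.07. Klf2 was at 7.22, Klf3 at 6.54, Klf6 at 6.15, Klf11 at 6.12 and Klf12 at 5.59, and Klf4 was lowest at 4.08. The scaling is approximate, because the annotation behind the table is not the one used for lengths. The remaining levels below are the log2 values as deposited, not per length, and are compared only within a gene.

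The genes fell into unlike patterns, and the largest shifts between groups were those of Klf10, Klf9 and Klf4. The range of the 4 group means was 0.99 on the log2 scale for Klf10, 0.86 for Klf9 and 0.83 for Klf4, against 0.71 for Klf12, 0.61 for Klf3 and 0.55 for Klf2. It was 0.36 for Klf11, 0.30 for Klf13, 0.26 for Klf15 and 0.25 for Klf6. Klf2, Klf4, Klf6, Klf10 and Klf11 were highest in ovariectomized vehicle livers, Klf3 and Klf12 in intact vehicle livers, and Klf9, Klf13 and Klf15 in ovariectomized dexamethasone livers.

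**Figure D2:**
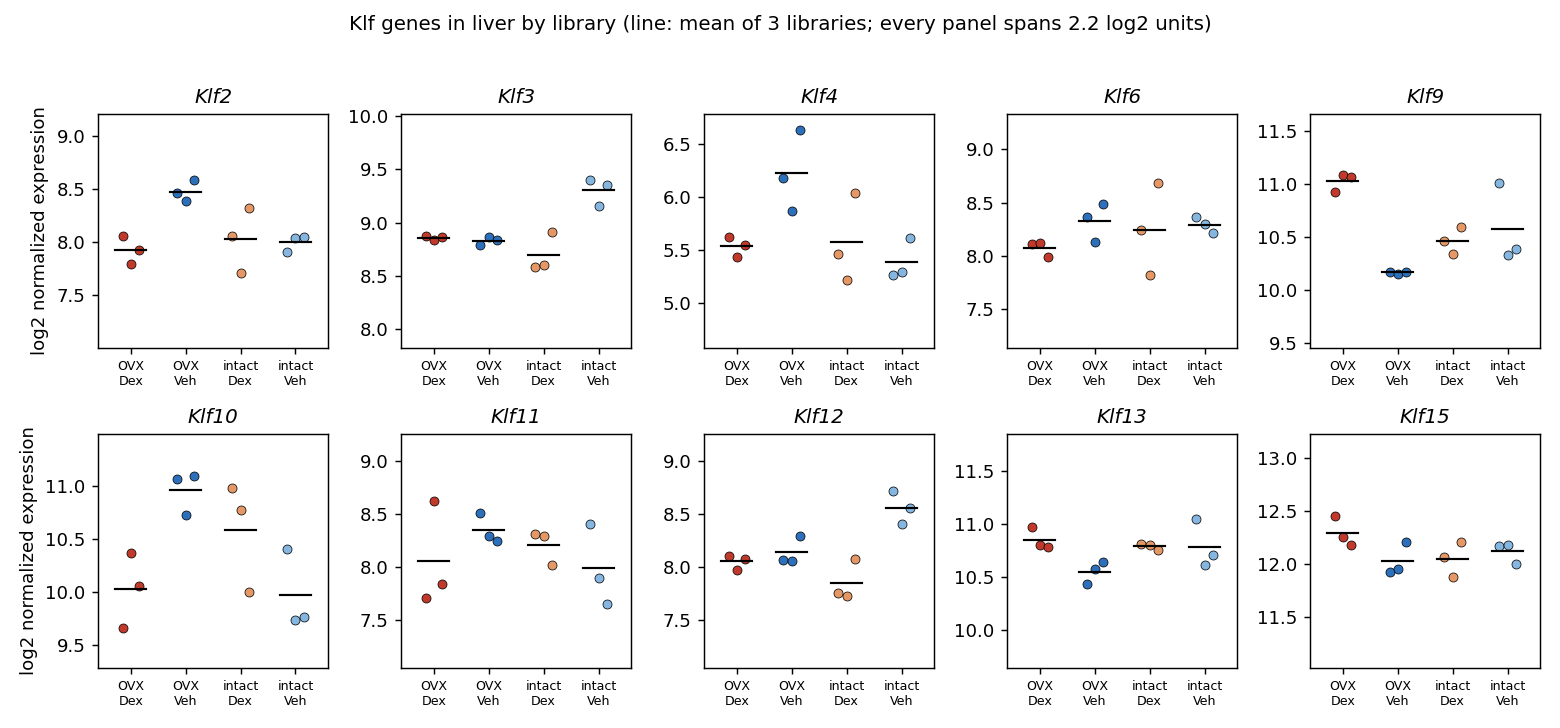
Log2 normalized expression of the 10 Klf genes, 1 panel per gene; points are libraries, lines the mean of 3 libraries, and every panel spans the same log2 range. From left to right the groups are ovariectomized dexamethasone, ovariectomized vehicle, intact dexamethasone and intact vehicle; Klf9 in ovariectomized livers shows the dexamethasone libraries at 10.92 to 11.08, all above the vehicle libraries at 10.15 to 10.17.

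With dexamethasone in ovariectomized females, Klf9 and Klf13 rose and Klf2, Klf4 and Klf10 fell, so 5 of the 10 were called, against 40.7% of all genes tested (21.3% higher and 19.4% lower). In intact females Klf3 and Klf12 fell and none rose, so 2 of 10 were called, against 48.8% of all genes (22.8% higher and 25.9% lower). Between ovariectomized and intact females under vehicle, 3 rose (Klf2, Klf4 and Klf10) and 3 fell (Klf3, Klf9 and Klf12), against 27.9% of all genes called (12.4% higher and 15.5% lower). Under dexamethasone 1 of 10 was called, the rise of Klf9, against 12.8% of all genes (7.74% higher and 5.08% lower). The difference between the responses was called for 5 of 10 (Klf2, Klf3, Klf9, Klf10 and Klf12), against 24.9% of all genes (15.3% higher and 9.65% lower). The libraries of the compared groups did not overlap for 6 of 10 with dexamethasone in ovariectomized females (54.6% of all genes), 2 of 10 in intact females (55.5%), 6 of 10 with ovariectomy under vehicle (45%) and 1 of 10 under dexamethasone (34.1%). The median log2 fold change of the 10 was -0.17 with dexamethasone in ovariectomized females, -0.02 in intact females, -0.03 with ovariectomy under vehicle and 0.01 under dexamethasone, against medians over all genes between -0.01 and 0.02. The dexamethasone comparison in ovariectomized females and the comparison of ovariectomized with intact vehicle livers share the ovariectomized vehicle libraries, so a shift in those 3 libraries enters both. Likewise the dexamethasone comparison in intact females and the comparison of vehicle livers share the intact vehicle libraries. The difference between responses uses all of these libraries, so these results are not separate.

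**Figure D3:**
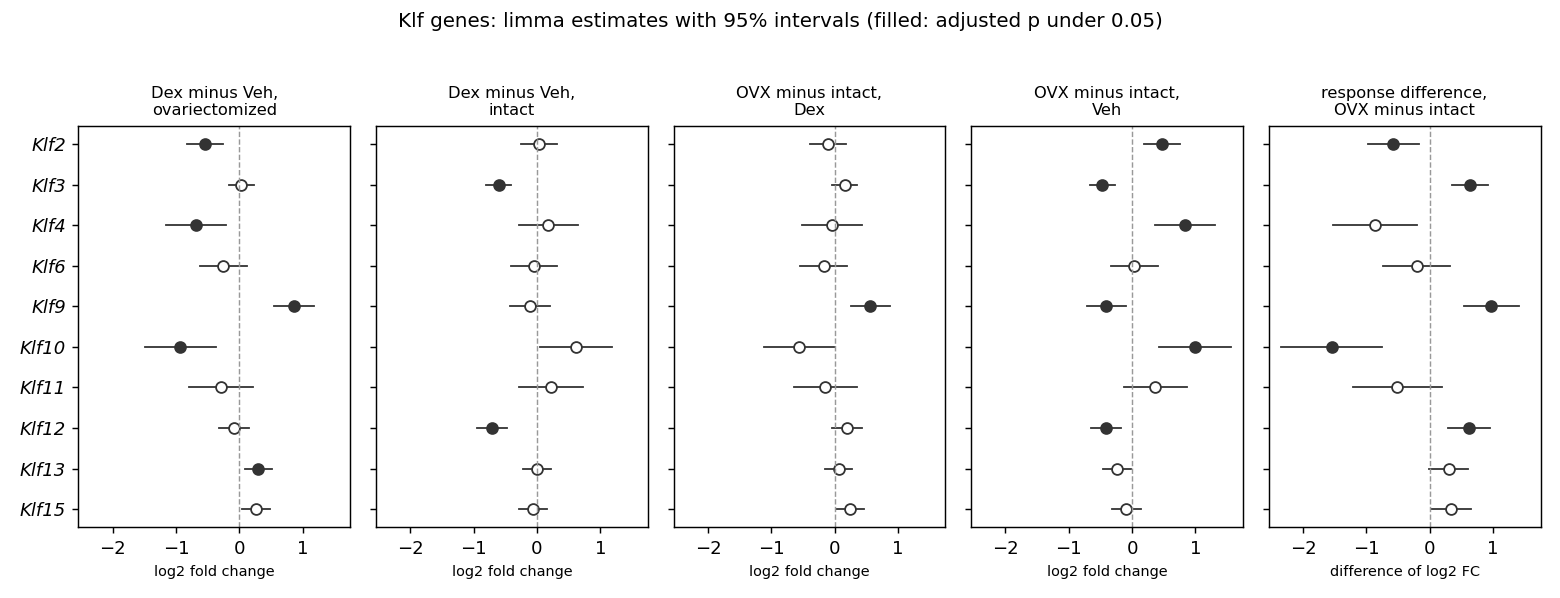
Limma log2 fold changes of the 10 Klf genes in the 5 comparisons, with 95% intervals; filled points had an adjusted p under 0.05. Filled points number 5, 2, 1, 6 and 5 from the left panel to the right, and Klf10 in the right panel has the largest difference, -1.55.

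Klf2, a regulator of endothelial quiescence and lymphocyte trafficking, had its highest level in ovariectomized vehicle livers. It had 8.06, 7.79 and 7.92 in the 3 ovariectomized dexamethasone libraries, against 8.46, 8.38 and 8.58 in the ovariectomized vehicle libraries. The groups did not overlap, and Klf2 fell with dexamethasone by 0.55 ± 0.13 (1.46-fold lower, limma adjusted p = 0.00595). In intact females the 3 dexamethasone libraries had 8.05, 7.70 and 8.32, on both sides of the vehicle libraries at 7.90, 8.04 and 8.05, and the change was 0.03 ± 0.13 (adjusted p = 0.875). Ovariectomized vehicle livers were above intact vehicle livers by 0.48 ± 0.13 (1.39-fold, limma adjusted p = 0.0186). The adjusted p became 0.0663 without replicate 3 of ovariectomized vehicle and 0.0723 without replicate 1 of intact vehicle, and the difference was 0.29 (adjusted p = 0.193) after removal of the trend that each library showed with transcript length and GC content. The response of Klf2 differed between gonadal states by -0.58 ± 0.18 (limma adjusted p = 0.0395), a call that was lost (adjusted p = 0.0504 to 0.0888) on leaving out 9 of the 12 libraries in turn: replicates 2 and 3 of ovariectomized dexamethasone, 1 and 3 of ovariectomized vehicle, 1 and 3 of intact dexamethasone, and each of intact vehicle. It was also lost with no filter (limma adjusted p = 0.0556), under quantile normalization (0.0515) and with the length and GC trend removed (-0.33, adjusted p = 0.269).

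Klf4, a pluripotency factor that also acts in endothelium, monocytes and epithelia, was likewise highest in ovariectomized vehicle livers. Its libraries had 5.62, 5.44 and 5.55 in ovariectomized dexamethasone livers, against 6.18, 5.86 and 6.63 in ovariectomized vehicle livers. No library overlapped, and Klf4 fell by 0.69 ± 0.22 (1.61-fold lower, limma adjusted p = 0.024). Against intact vehicle livers, at 5.27, 5.29 and 5.61, ovariectomized vehicle livers were higher by 0.83 ± 0.22 (1.78-fold, adjusted p = 0.0148), and 99.4% of the genes tested had a lower value in that comparison. Intact dexamethasone livers had 5.46, 5.22 and 6.03, and the third replicate alone lay above all intact vehicle libraries (change 0.18 ± 0.22, adjusted p = 0.512, and -0.05 without that replicate). The fall with dexamethasone lost its call without replicate 2 or 3 of ovariectomized dexamethasone or 1 or 3 of ovariectomized vehicle (limma adjusted p = 0.0537 to 0.1), and the rise with ovariectomy without replicate 3 of ovariectomized vehicle or 1 of intact vehicle (adjusted p = 0.0569 and 0.0568). The response of Klf4 differed by -0.87 ± 0.30, which was not called (limma adjusted p = 0.0561), though it was called without replicate 2 of intact dexamethasone (adjusted p = 0.0277) or of ovariectomized vehicle (0.028) and after recentring (0.0494).

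Klf6, an injury-induced factor of stellate cells and hepatocytes, was not called in any of the 5 comparisons. It had 8.11, 8.12 and 7.99 in ovariectomized dexamethasone livers, against 8.37, 8.13 and 8.49 in ovariectomized vehicle livers (-0.25 ± 0.17, limma adjusted p = 0.251). These libraries did not overlap, as was so for 54.6% of all genes in that comparison. Intact dexamethasone livers had 8.24, 7.81 and 8.68, a wider spread (SD 0.43) than intact vehicle livers at 8.36, 8.30 and 8.21 (SD 0.075). The highest value, as for Klf2 and Klf4, was that of replicate 3. Of 8 markers of stellate cells, none was called with dexamethasone in ovariectomized females (40.7% of all genes), while in intact females 4 rose and 0 fell (50% called, against 48.8% of all genes). Of 6 Kupffer cell markers, 5 were lower in ovariectomized than in intact vehicle livers and 0 higher (83.3% called, against 27.9% of all genes).

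Klf10, first known as a gene induced early by transforming growth factor beta and a repressor of gluconeogenic genes, had the largest difference between responses in the group. In ovariectomized females the dexamethasone libraries had 9.66, 10.37 and 10.06, against 11.06, 10.73 and 11.10 in the vehicle libraries. All 3 were lower, and Klf10 fell by 0.93 ± 0.26 (1.91-fold lower, limma adjusted p = 0.0132, and 0.0563 without replicate 1 of ovariectomized dexamethasone). In intact females the dexamethasone libraries had 10.98, 10.78 and 10.01, against 10.41, 9.74 and 9.77 in the vehicle libraries. The groups overlapped through replicate 3 of dexamethasone and replicate 1 of vehicle, and the change of 0.62 ± 0.26 was not called (limma adjusted p = 0.0667). It was 0.91 (adjusted p = 0.0069) without that dexamethasone library, 0.84 (adjusted p = 0.0267) without that vehicle library and 1.13 (adjusted p = 0.00178) without both. Because those libraries were the ones that made the groups overlap, a larger change without them was bound to follow. It adds no support for a rise. The responses differed by -1.55 ± 0.36 (limma adjusted p = 0.011, with a 95% interval from -2.35 to -0.75), and 0.0848% of the genes tested had a lower difference.

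Under vehicle, ovariectomized livers had 1.99-fold the Klf10 level of intact livers (0.99 ± 0.26, limma adjusted p = 0.0153), and the libraries did not overlap, as for 45% of all genes. That call was lost without replicate 3 of ovariectomized vehicle (adjusted p = 0.0503) or replicate 3 of intact vehicle (adjusted p = 0.0577). Under dexamethasone the difference was -0.56 ± 0.26 (limma adjusted p = 0.164), and -0.85 (adjusted p = 0.0386) without replicate 3 of intact dexamethasone. Klf11, the closest relative of Klf10 and likewise responsive to transforming growth factor beta, was not called in any of the 5 comparisons. It had 7.71, 8.62 and 7.84 in ovariectomized dexamethasone livers, against 8.51, 8.29 and 8.25 in ovariectomized vehicle livers. The second dexamethasone replicate was the highest of the 6, and the change was -0.29 ± 0.23 (limma adjusted p = 0.328) with all libraries and -0.57 (adjusted p = 0.0322) without it. In intact females it had 8.31, 8.29 and 8.02 with dexamethasone, against 8.41, 7.90 and 7.65 with vehicle (0.22 ± 0.23, limma adjusted p = 0.447). Its responses differed by -0.51 ± 0.32 (limma adjusted p = 0.26), and by -0.79 (adjusted p = 0.0441) without that second replicate. Because that replicate lay against the fall, larger values without it were bound to follow. They add no support for a fall. Ovariectomized vehicle livers differed from intact vehicle livers by 0.36 ± 0.23 (adjusted p = 0.256).

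Immediate early genes, which cells switch on within minutes of a stimulus, moved with Klf2, Klf4 and Klf10 in ovariectomized vehicle livers. Of 12 measured, 10 fell and 0 rose with dexamethasone in ovariectomized females, and 10 were higher and 0 lower in ovariectomized than in intact vehicle livers. The called share was 83.3% in each, against 40.7% and 27.9% of all genes in the same order. The orphan receptor gene Nr4a1 was higher by 4.64 ± 0.28 in ovariectomized than in intact vehicle livers, Nr4a2 by 2.33 ± 0.22, the stress factor Atf3 by 1.77 ± 0.31 and Ier3 by 1.39 ± 0.17. The summed level of the 14 genes of the list was 12.17 to 12.38 in ovariectomized dexamethasone livers, 12.68 to 13.68 in ovariectomized vehicle livers, 12.16 to 12.63 in intact dexamethasone livers and 12.02 to 12.14 in intact vehicle livers. Within ovariectomized vehicle livers replicate 3 was highest and replicate 2 lowest in that sum, in Klf2, in Klf4 and in Klf10. In intact dexamethasone livers replicate 3 had the highest sum and the highest Klf2, Klf4 and Klf6, but the lowest Klf10. The part of the immediate early genes in the Klf changes was not tested.

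**Figure D4:**
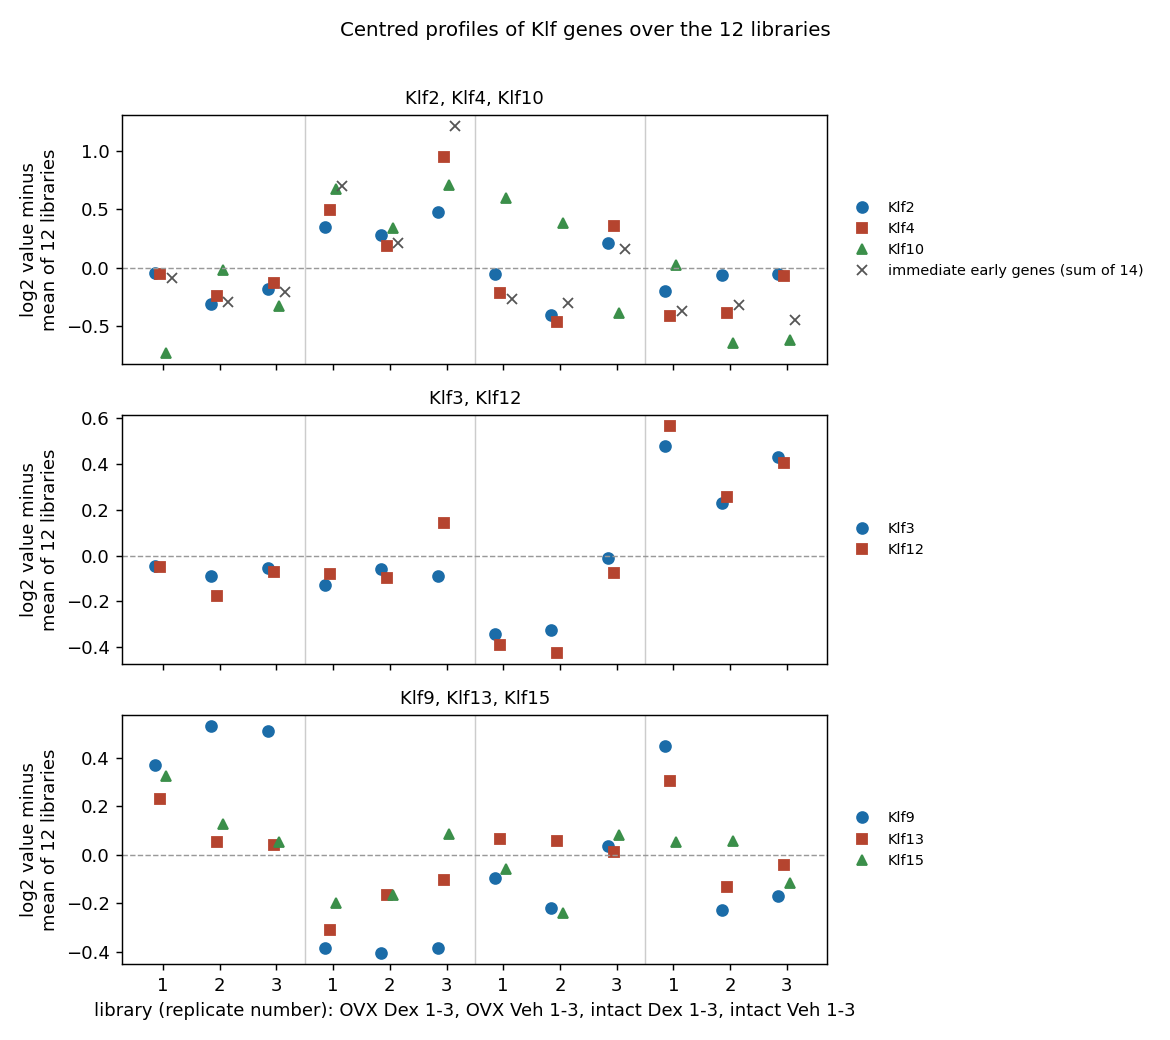
Log2 values of Klf genes minus the mean of each gene over the 12 libraries, by library, with the summed level of 14 immediate early genes as crosses in the top panel. Klf2, Klf4 and Klf10 are above 0 in all 3 ovariectomized vehicle libraries, Klf3 and Klf12 in all 3 intact vehicle libraries, and Klf9, Klf13 and Klf15 in all 3 ovariectomized dexamethasone libraries.

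Of 9 markers of sinusoidal endothelium, where Klf2 and Klf4 are known to act, 1 was higher and 0 lower in ovariectomized than in intact vehicle livers (Clec4g, a lectin, 0.24 ± 0.078). Their summed level was 12.99 to 13.21 in ovariectomized vehicle livers, against 13.00 to 13.14 in intact vehicle livers, so the groups overlapped, and none of the 9 was at 0. With dexamethasone in ovariectomized females 2 rose and 3 fell, and the sum was 13.23 to 13.51 in dexamethasone livers, against 12.99 to 13.21 in vehicle livers. In intact females 3 rose and 1 fell, and the sum was 13.34 to 13.75 in dexamethasone livers, against 13.00 to 13.14 in vehicle livers. The sums did not overlap in either gonadal state and were higher with dexamethasone. They add linear values, so the most abundant marker, Stab1, weighs most (mean 12.02 with dexamethasone and 11.24 with vehicle in ovariectomized females). The median log2 fold change of the 9 markers was -0.01 in ovariectomized and 0.15 in intact females. Their called share with dexamethasone was 55.6% and 44.4% in the same order, against 40.7% and 48.8% of all genes. With ovariectomy under vehicle it was 11.1%, against 27.9%. Klf2 and Klf4 fell in ovariectomized females and were not called in intact females. Of 8 measured genes known from endothelial cells as targets of Klf2 or Klf4, 3 rose and 2 fell with dexamethasone in ovariectomized females, and 1 was higher and 1 lower in ovariectomized than in intact vehicle livers. The called share was 62.5% and 25% in these comparisons, against 40.7% and 27.9% of all genes. The list was not divided by whether Klf2 or Klf4 activates or represses a gene, so its counts cannot be read against their changes. The endothelial nitric oxide synthase gene Nos3, which Klf2 activates in endothelial cells, was among the higher genes in both (0.41 ± 0.15 with dexamethasone and 0.48 ± 0.15 with ovariectomy under vehicle), while Klf2 fell in the first and rose in the second. In intact females the Nos3 mean was 7.98 with dexamethasone and 7.27 with vehicle, and Klf2 was not called. Other list genes with higher means with dexamethasone in ovariectomized females included Vcam1 (9.57, against 8.68 with vehicle) and Edn1 (5.45, against 4.78). Lower means there included Cxcl12 (13.2, against 13.6) and Icam1 (8.80, against 9.05). The summed level of 4 neutrophil markers was 7.52 to 7.85 in ovariectomized vehicle livers, against 7.14 to 7.51 in intact vehicle livers. Of 3 neutrophil markers tested, 1 was called higher in that comparison (12.4% of all genes), and with dexamethasone in ovariectomized females 3 of 3 fell (19.4% of all genes). B cell markers, of interest because Klf2 is known in lymphocytes, fell with dexamethasone in both gonadal states (4 of 4 each, against 19.4% of all genes in ovariectomized and 25.9% in intact females). Their sums were 7.01 to 7.13 in ovariectomized dexamethasone livers against 7.74 to 8.07 in ovariectomized vehicle livers, and 7.27 to 7.37 in intact dexamethasone livers against 7.75 to 8.20 in intact vehicle livers. Cholangiocyte markers had sums of 10.82 to 11.08 in ovariectomized dexamethasone livers, against 11.30 to 11.57 in ovariectomized vehicle livers, and 2 of 5 fell and 0 rose. That sum is mostly Spp1, with means of 10.74 and 11.32 in the same order. Krt19 (5.39 and 5.49), Krt7 (5.10 and 5.22) and Epcam (6.00 and 6.32) were also lower with dexamethasone, and Sox9 (6.60 and 6.31) was higher. The called share of the 5 was 40%, against 40.7% of all genes. In intact vehicle livers the cholangiocyte sum was 10.94 to 11.02, below that of ovariectomized vehicle livers. Of the 5 markers, 2 were called higher and 0 lower with ovariectomy under vehicle (40%, against 27.9% of all genes). The part of these cells in the Klf2 and Klf4 differences was not tested.

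Klf3, a CtBP-dependent repressor known from erythroid, B cell and fat cell biology, was highest in intact vehicle livers. In intact females it had 8.58, 8.60 and 8.91 with dexamethasone, against 9.40, 9.15 and 9.35 with vehicle. Every dexamethasone library was lower, and Klf3 fell by 0.61 ± 0.09 (1.52-fold lower, limma adjusted p = 0.00025). In ovariectomized females it had 8.88, 8.83 and 8.87 with dexamethasone, against 8.79, 8.86 and 8.83 with vehicle, and the groups overlapped (0.03 ± 0.09, limma adjusted p = 0.818, 95% interval -0.17 to 0.23). The responses differed by 0.64 ± 0.13 (limma adjusted p = 0.00501). Under vehicle, ovariectomized livers were below intact livers (-0.47 ± 0.09, 1.39-fold lower, limma adjusted p = 0.00335). This difference, the fall in intact females and the response difference share the intact vehicle libraries, for Klf3 and for Klf12 below. Under dexamethasone the difference was 0.16 ± 0.09 (limma adjusted p = 0.239), and 0.27 (adjusted p = 0.0439) without replicate 3 of intact dexamethasone. The exons of Klf3 overlap those of an antisense gene over 3.6% of their bases, and whether the counting used strand is not given in the sources used here.

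Klf12, which represses through the same corepressor, followed Klf3 closely. It had 7.76, 7.72 and 8.07 in intact dexamethasone livers, against 8.71, 8.41 and 8.55 in intact vehicle livers. The fall of 0.71 ± 0.11 was 1.63-fold (limma adjusted p = 0.00031). In ovariectomized females it had 8.10, 7.97 and 8.08 with dexamethasone, against 8.07, 8.05 and 8.29 with vehicle (-0.09 ± 0.11, adjusted p = 0.551), and the responses differed by 0.62 ± 0.15 (limma adjusted p = 0.014). Ovariectomized vehicle livers were below intact vehicle livers (-0.42 ± 0.11, 1.34-fold lower, limma adjusted p = 0.0148), a call lost without replicate 1 or 2 of ovariectomized vehicle or 1 of intact vehicle (adjusted p = 0.0516 to 0.0665) and with the length and GC trend removed (-0.26, adjusted p = 0.0755).

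Over the 12 libraries the centred profiles of Klf3 and Klf12 differed by a root mean square of 0.0871, the smallest of the 45 pairs in the group. The next were Klf13 and Klf15 at 0.152 and Klf2 and Klf4 at 0.196. Both Klf3 and Klf12 have long transcripts (5221 and 5890 bases, against 1847 in Klf2). Their falls in intact females stayed called with the length and GC trend removed (-0.46 and -0.54, limma adjusted p = 0.000531 and 0.000854). In Klf12, 4.28% of the 50-base words of all its annotated transcripts also occur in other genes, against at most 0.35% in the other members. How the counting treated such reads is not given in the sources used here.

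Klf9, which is known to be induced by glucocorticoids and to repress through Sin3, rose with dexamethasone in ovariectomized females. It had 10.92, 11.08 and 11.06 in the dexamethasone libraries, against 10.17, 10.15 and 10.17 in the vehicle libraries. The groups did not overlap, and Klf9 rose by 0.86 ± 0.14 (1.82-fold, limma adjusted p = 0.00069). In intact females it had 10.46, 10.34 and 10.59 with dexamethasone, against 11.004, 10.33 and 10.38 with vehicle. Replicate 1 of intact vehicle was the highest of these 6, and the change was -0.11 ± 0.14 (limma adjusted p = 0.547) with all libraries and 0.11 (adjusted p = 0.278) without it. The responses differed by 0.97 ± 0.20 (limma adjusted p = 0.0057), and 98.9% of the genes tested had a lower difference. Without that replicate the difference was 0.76 (adjusted p = 0.00196).

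Between ovariectomized and intact females Klf9 was called in opposite directions under dexamethasone and under vehicle, the second close to the threshold. Under dexamethasone ovariectomized livers were higher by 0.56 ± 0.14 (1.48-fold, limma adjusted p = 0.0296), which was not called without replicate 2 or 3 of ovariectomized dexamethasone or 1 or 2 of intact dexamethasone (adjusted p = 0.0685 to 0.0977) or under quantile normalization (0.06). Under vehicle ovariectomized livers were lower (-0.41 ± 0.14, 1.33-fold, limma adjusted p = 0.0497). The vehicle call was kept only with a filter at a mean of 6 and without replicate 3 of intact dexamethasone or replicate 2 or 3 of intact vehicle. It was lost in every other alternative run, among them leaving out each of the other 9 libraries, and the adjusted p was 0.0195 to 0.138 over all alternatives. The value was -0.19 (adjusted p = 0.101) without replicate 1 of intact vehicle. Other glucocorticoid-responsive genes, Fkbp5, Tsc22d3 and Zbtb16, rose in both gonadal states: Fkbp5, a receptor chaperone, by 2.29 ± 0.22 in ovariectomized and 1.28 ± 0.22 in intact females, Zbtb16, a zinc finger factor, by 2.89 ± 0.30 and 1.31 ± 0.30, and the leucine zipper gene Tsc22d3 by 1.13 ± 0.15 and 0.59 ± 0.15 in the same order. The phosphatase gene Dusp1 differed by 0.49 ± 0.21 with dexamethasone in ovariectomized females, without passing (adjusted p = 0.0766), and rose by 1.88 ± 0.21 in intact females. The clock gene Per1 had values of 0.36 ± 0.16 in ovariectomized females (adjusted p = 0.091) and 0.64 ± 0.16 in intact females (adjusted p = 0.00627). The glucocorticoid receptor gene Nr3c1 had a difference of -0.03 ± 0.054 in ovariectomized females (adjusted p = 0.636) and fell by 0.57 ± 0.054 in intact females. A difference between responses, ovariectomized minus intact, was called for 4 of these 6 genes (66.7%, against 24.9% of all genes), positive for 3 and negative for 1. A response that differed by gonadal state was thus not particular to Klf9.

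Klf13, a close relative of Klf9 known as an activator of chemokine genes in T cells, moved in the same direction on a smaller scale. It had 10.98, 10.80 and 10.79 in ovariectomized dexamethasone livers, against 10.44, 10.58 and 10.64 in ovariectomized vehicle livers. The rise of 0.30 ± 0.10 was 1.23-fold (limma adjusted p = 0.0301), and it was not called without replicate 1 of ovariectomized dexamethasone or replicate 1 or 2 of ovariectomized vehicle (adjusted p = 0.053 to 0.117). In intact females it had 10.81, 10.80 and 10.76 with dexamethasone, against 11.05, 10.61 and 10.71 with vehicle (0.00 ± 0.10, adjusted p = 0.989). The responses differed by 0.30 ± 0.14, which was not called (limma adjusted p = 0.136). Ovariectomized vehicle livers differed from intact vehicle livers by -0.24 ± 0.10 (adjusted p = 0.0965), and by -0.32 (adjusted p = 0.0321) without replicate 2 of intact vehicle.

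Klf15, the most abundant of the 10 per length, was not called in any comparison. It had 12.45, 12.25 and 12.17 in ovariectomized dexamethasone livers, against 11.92, 11.95 and 12.20 in ovariectomized vehicle livers. The third vehicle library made the groups overlap, and the change was 0.26 ± 0.10 (limma adjusted p = 0.0587, 95% interval 0.04 to 0.48). It was called without replicate 3 of ovariectomized vehicle (0.35, adjusted p = 0.0236), without replicate 2 or 3 of intact dexamethasone (adjusted p = 0.0426 and 0.0425) and with the length and GC trend removed (0.28, adjusted p = 0.0498). Because that vehicle library made the groups overlap, a larger change without it was bound to follow and adds no support for a rise. In intact females Klf15 had 12.06, 11.88 and 12.20 with dexamethasone, against 12.17, 12.18 and 12.001 with vehicle (-0.07 ± 0.10, limma adjusted p = 0.601, 95% interval -0.29 to 0.15).

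Genes of amino acid breakdown and gluconeogenesis, among which Klf15 and Klf9 have known targets, were called in part in each gonadal state. Of 20 measured, 14 rose and 1 fell with dexamethasone in ovariectomized females, with a median of 0.75, and 11 rose and 3 fell in intact females, with a median of 0.39. The called share was 75% in ovariectomized females, against 40.7% of all genes, and 70% in intact females, against 48.8%. The tryptophan dioxygenase gene Tdo2 rose by 1.74 ± 0.11 in ovariectomized and 1.13 ± 0.11 in intact females, and Aass, which degrades lysine, by 1.68 ± 0.11 and 0.80 ± 0.11 in the same order. Prodh, the proline dehydrogenase gene and a known Klf15 target, rose by 0.75 ± 0.15 in ovariectomized females (limma adjusted p = 0.00243) and had a value of 0.36 ± 0.15 in intact females (adjusted p = 0.0662). Ppargc1a, the gluconeogenic coactivator that Klf9 is known to induce in liver, rose by 0.68 ± 0.25 in ovariectomized females (adjusted p = 0.047) and had a value of 0.40 ± 0.25 in intact females (adjusted p = 0.205). Prodh and Ppargc1a were not called for a difference between responses (0.39 ± 0.22 and 0.28 ± 0.35). The responses differed for 7 of the 20 (35%, against 24.9% of all genes), being greater in ovariectomized females for 6, among them Cps1 of the urea cycle (1.04 ± 0.17), and lower for the glucose-6-phosphatase gene G6pc (-0.92 ± 0.29).

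Of 16 genes of transforming growth factor beta signalling, the pathway that induces Klf10 and Klf11, 0 rose and 4 fell with dexamethasone in ovariectomized females, and 4 rose and 5 fell in intact females. The called share was 25% in ovariectomized females, against 40.7% of all genes, and 56.2% in intact females, against 48.8%. Smad7, the pathway inhibitor, fell by 0.43 ± 0.09 in ovariectomized females, rose by 0.24 ± 0.09 in intact females and was higher by 0.64 ± 0.09 in ovariectomized than in intact vehicle livers. The part of this pathway in the Klf10 and Klf11 values was not tested. Of 18 clock genes, 4 rose and 6 fell in ovariectomized females and 5 rose and 8 fell in intact females. Their called share was 55.6% in ovariectomized females, against 40.7% of all genes, and 72.2% in intact females, against 48.8%. The clock activator gene Arntl rose by 2.43 ± 0.18 in ovariectomized and 1.90 ± 0.18 in intact females. Bhlhe40, a repressor of the clock that also responds to stress, fell by 1.07 ± 0.16 with dexamethasone in ovariectomized females and was higher by 0.59 ± 0.16 in ovariectomized than in intact vehicle livers.

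Of the 13 cofactor genes through which Klf proteins act or are degraded, 2 rose and 2 fell with dexamethasone in ovariectomized females and 3 rose and 5 fell in intact females. The called share was 30.8% in ovariectomized females, against 40.7% of all genes, and 61.5% in intact females, against 48.8%. Among the falls in intact females were the acetyltransferase gene Crebbp (-0.46 ± 0.069), Sin3a, the corepressor bound by Klf9, Klf10, Klf11 and Klf13 (-0.35 ± 0.064), and Wwp1, a ubiquitin ligase (-0.39 ± 0.056). Of the CtBP genes, Ctbp1 fell by 0.15 ± 0.047 in ovariectomized females, and Ctbp2 was not called in any comparison (-0.13 ± 0.12 in ovariectomized and -0.05 ± 0.12 in intact females with dexamethasone).

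Of 16 other genes of the Klf and Sp family, 8 passed the filter on low values. With dexamethasone 1 rose and 1 fell in ovariectomized females, and 0 rose and 3 fell in intact females. The called share was 25% in ovariectomized females, against 40.7% of all genes, and 37.5% in intact females, against 48.8%. Klf16, a close relative of Klf9 and Klf13, fell by 1.00 ± 0.13 in ovariectomized females (limma adjusted p = 0.00019) and had a value of -0.32 ± 0.13 in intact females (adjusted p = 0.0637), a difference of -0.68 ± 0.19 (adjusted p = 0.0224). Sp1, the widely expressed activator at GC boxes, rose by 0.16 ± 0.046 in ovariectomized females and fell by 0.14 ± 0.046 in intact females. Sp3 and Sp4 fell in intact females by 0.36 ± 0.077 and 0.53 ± 0.097, and Sp4 was lower in ovariectomized than in intact vehicle livers (-0.46 ± 0.097). Klf1, the erythroid factor, Klf7, Sp2 and Sp5 were not called in any comparison.

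The tested genes with centred profiles nearest to that of Klf10 over the 12 libraries were Stac3, Aspg and Gpat2, with root mean square differences of 0.284, 0.292 and 0.3, against 0.514 for Klf10 about its own mean and a median of 0.551 over all genes. Nearest to Klf9 were Ncoa4, Fam126b and Zyg11a (0.13, 0.135 and 0.138, against 0.351 for Klf9 about its own mean). Nearest to Klf4 were Sytl5, Apold1 and Tuba1a (0.159, 0.173 and 0.176, against 0.406 for Klf4 about its own mean).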

How the data were processed

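Liver RNA-seq of 12 libraries was analysed from the authors' deposited log2 normalized expression values, 1 value per gene entry and library. The submitters' processing notes name build mm9 and the tools DESeq, DESeq2, HTSeq, TopHat2 and Trim Galore. Their versions, the annotation, the form of the log2 transformation and the use of strand: not given in the sources used here. Values are not per length, and the depth is unknown.

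The table held 24962 entries for 24033 symbols. Genes with a mean log2 value of at least 4 were kept (12965). Groups were fitted together in limma 3.58.1 (R 4.3.3) with a trended prior variance, and p-values were adjusted by the Benjamini-Hochberg method over all genes tested. Dexamethasone was set against vehicle separately in ovariectomized and intact females, ovariectomized against intact females separately with dexamethasone and with vehicle, and the fifth comparison tested whether both dexamethasone responses differed. On simulated data over 12965 genes, changes of 1 on the log2 scale were recovered in 98% of cases for dexamethasone in ovariectomized females, and changes of 0.3 in 34%. For the difference between responses, 82% were recovered at a size of 1, 46% at 0.5 and 14% at 0.3. Each simulated set had only 50 altered genes at each size. In the data 40.7% and 24.9% of all genes were called in these 2 comparisons. The Benjamini-Hochberg threshold depends on the share of changed genes, so these rates do not give the recovery in the data.

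The Klf genes and the gene lists (the wider family, cofactors, glucocorticoid-responsive, metabolic, endothelial, transforming growth factor beta, clock, immediate early and cell type marker genes) were chosen with earlier results of these data known. All 10 Klf genes are named. From each list up to 4 called genes per comparison could be named by size of change, plus all measured genes of the wider family and of the glucocorticoid-responsive list; Prodh, Ppargc1a and Ctbp2 fell outside this and were added after their values were seen. Likeness was the root mean square difference of centred profiles, for the 3 Klf genes with the widest range of group means.

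Replicate numbers were shared between groups, but same-numbered libraries correlated between -0.23 and 0.40 in their deviations from group means, and 5 of 12 correlated best with their own number, so the numbers were not treated as pairs. The labels do not say whether the numbers mark pairs or a batch, and these correlations cannot exclude either. Alternatives tried were a filter at a mean of 6, no filter, recentring, a pseudocount of 8, quantile normalization, no variance trend, fits of only the libraries compared, a replicate block and leaving out each library. After the data were seen, 2 more were added: removal, library by library, of the trend with transcript length and GC content, and leaving out intact dexamethasone replicate 3 and intact vehicle replicate 1 together. Those libraries are the ones through which the Klf10 groups of intact females overlapped. For every gene, leaving out a library that lay against a difference was bound to enlarge it. A call gained in that way adds no support. Promoters were RefSeq windows of GRCm38.p6, searched on both strands, and lengths and GC content came from GENCODE M21.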

Additional observations from a re-analysis of the deposited data

Results flagged for a closer look

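For 5 Klf genes the response to dexamethasone differed between ovariectomized and intact females by the test of that difference itself (limma, Benjamini-Hochberg adjusted p under 0.05). The difference, ovariectomized minus intact, was -1.55 for Klf10 (adjusted p = 0.011), 0.97 for Klf9 (adjusted p = 0.0057), 0.64 for Klf3 (adjusted p = 0.00501), 0.62 for Klf12 (adjusted p = 0.014) and -0.58 for Klf2 (adjusted p = 0.0395). For Klf9, Klf10 and Klf2 the change in ovariectomized females was called and that in intact females was not, and for Klf3 and Klf12 the reverse. The differences of Klf3, Klf9, Klf10 and Klf12 stayed called in every alternative run, with adjusted p up to 0.0159, 0.0163, 0.03 and 0.0414, and that of Klf2 did not. Groups of 3 libraries were too small to test single libraries as outliers.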

How the results depend on the processing

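Of 50 results (10 genes in 5 comparisons), 19 were called, and none of these changed sign under any alternative; of their 411 alternative values, 356 stayed called and 55 did not. The replicate numbers were not treated as pairs. With the replicate block in limma 18 of 19 calls were kept, Klf9 in ovariectomized against intact vehicle livers was lost (adjusted p = 0.0577) and the response difference of Klf4 was gained (adjusted p = 0.0142). Klf4 was not tested at a mean of at least 6. Depth limits are unknown because the files give no counts. Where values moved below, the cause was not tested.

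In intact females the count of Klf genes that rose with dexamethasone was 0, and 1 without both intact dexamethasone replicate 3 and intact vehicle replicate 1; leaving out single libraries gave 0 to 1. In ovariectomized females it was 2 (1 to 3 leaving out single libraries). In ovariectomized against intact vehicle livers 3 rose (0 to 3) and 3 fell (1 to 4), with 1 falling once the length and GC trend was removed. Over all genes 1608 were higher and 2010 lower there (949 to 1788 and 1266 to 2201 leaving out single libraries), and the fit with that trend removed, on the 12425 genes with a length, called 1015 higher and 1320 lower. Under dexamethasone 1 rose (0 to 2) and 0 fell (0 to 1), with 0 rising under quantile normalization, and 2 rising and 1 falling without both libraries. There the genes higher were 1004, against 400 under quantile normalization and 398 with only the libraries compared (145 to 1130), and the genes lower 658, against 368, 203 and, without both libraries, 431 (62 to 722). For the difference between responses 2 Klf genes were lower (1 to 3), and 1 with no filter, under quantile normalization, with the length and GC trend removed or without both libraries, and 1251 genes in all were lower (741 to 1404).

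Signs turned only among results that were not called. With dexamethasone in intact females, removing the length and GC trend gave -0.15 for Klf2, 0.061 for Klf6 and 0.0064 for Klf9, quantile normalization gave 0.033 for Klf15, and leaving out both libraries gave -0.17 for Klf2, -0.11 for Klf4 and 0.042 for Klf9, while Klf13 was at 0.15 with no turn of sign. Leaving out single libraries there gave -0.12 to 0.19 for Klf2, -0.05 to 0.36 for Klf4, -0.27 to 0.17 for Klf6, -0.23 to 0.11 for Klf9, -0.086 to 0.13 for Klf13 and -0.15 to 0.016 for Klf15. In ovariectomized against intact livers under dexamethasone, quantile normalization gave 0.12 for Klf4 and -0.022 for Klf13, and leaving out both libraries gave 0.046 for Klf2, 0.20 for Klf4 and 0.045 for Klf6. Leaving out single libraries there gave -0.26 to 0.046 for Klf2, -0.21 to 0.20 for Klf4, -0.39 to 0.045 for Klf6 and -0.43 to 0.027 for Klf11. Klf6 ranged from -0.046 to 0.14 between vehicle livers and from -0.42 to 0.011 for the difference between responses.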
